A study of Homo sapiens with 6 samples.

Results

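MHCC97H and MHCC97L are human hepatocellular carcinoma sublines derived from one parental tumour line and known for high and low metastatic potential. The 4 libraries described here are those whose labels name either subline, out of 6 in the series. Gene levels in MHCC97H were compared with MHCC97L within each treatment, control with control and TGF-β1 with TGF-β1. The groups, each of 1 library, were MHCC97L and MHCC97H kept without ligand as controls, and MHCC97L and MHCC97H given 2.5 ng/mL TGF-β1 for 4 h. The HCCLM3 line, which belongs to the same lineage and is also highly metastatic, was sequenced with and without the same treatment and serves only to show whether a difference was shared. All cells were grown in DMEM with fetal bovine serum. The labels give no passage number and leave unsaid if each library had its own culture, so a difference between the lines and any difference between their cultures or libraries cannot be told apart.

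Metastatic spread of liver cancer depends on cell adhesion, remodelling of the matrix, motility, survival in vessels and growth at a new site. Sublines of one tumour that differ in spread have long been used to look for genes of these steps, since they share an origin and much of their genome. TGF-β1, a secreted ligand that activates SMAD transcription factors, is known to change many of the same genes, which is why the lines were compared within treatment.

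Markers of hepatocytes were detected in both sublines, at uneven levels, beside markers of cholangiocytes. All 9 hepatocyte markers passed the filter on low counts, with summed levels of 326.95 and 475.41 CPM in MHCC97L and 342.65 and 445.16 CPM in MHCC97H. ALB, which encodes albumin, was at 8.88 and 12.3 CPM (counts scaled to the size of each library) in MHCC97L, control first, and at 22.9 and 22.5 CPM in MHCC97H. HNF4A, a transcription factor of hepatocyte identity, was at 105 and 187 CPM in MHCC97L and 98.0 and 208 CPM in MHCC97H. TTR and APOA1, which encode plasma transport proteins, were low, at 0.566 to 0.752 and 1.29 to 2.96 CPM over the 4 libraries. The cholangiocyte keratin genes KRT7 and KRT19 were at 98.3 to 337 and 469 to 636 CPM, and all 4 markers of that cell type were tested. In the same list SOX9 was at 12.5 to 15.9 CPM, while EPCAM was low, at 0.191 to 0.653 CPM. Of 4 oncofetal markers AFP was at 4.05 to 5.29 CPM and GPC3 at 0 in all 4 libraries. Of 6 leukocyte markers CD68 and ITGAM were at 109 to 166 and 9.53 to 12.4 CPM, while the pan-leukocyte gene PTPRC did not exceed 0.131 CPM. Of 5 endothelial markers PECAM1 was at 22.5 to 31.0 CPM and KDR at 4.79 to 10.5 CPM, while the endothelial cadherin gene CDH5 did not exceed 0.348 CPM. Summed levels were 120.04 to 179.32 CPM for the leukocyte list, 32.98 to 41.08 CPM for the endothelial list and 10.62 to 19.85 CPM for 7 markers of stellate cells or fibroblasts, and their part in the results was not tested. Total counts of the 4 libraries ran from 20407357 to 23242963. In bulk RNA, fewer cells of a type and less RNA per cell cannot be told apart.

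Of 14586 genes tested, 404 (2.77%) differed between MHCC97H and MHCC97L at an adjusted p under 0.05 in edgeR's quasi-likelihood test (Benjamini-Hochberg adjustment), and 2246 had an unadjusted p under 0.05. Of the 404, 242 (1.66% of all tested) were higher in MHCC97H and 162 (1.11%) were lower, and 161 differed by 2-fold or more, 103 of them higher and 58 lower. The median difference over all genes, which scaling between libraries sets near 0, was 0.01 on the log2 scale, where positive values mean higher in MHCC97H. The same fit called 4369 genes between HCCLM3 and MHCC97L. On simulated counts 44 of its 239 calls between the sublines were genes left unchanged, more than the threshold allows. The p sets the line difference against how far differences among the lines, HCCLM3 included, varied between control and TGF-β1. That spread has 2 residual degrees of freedom over the 6 libraries, and it is not the spread between cultures. The count moved with the libraries in the fit: it was 130 without the MHCC97L control, 224 without the MHCC97H control, 169 without the MHCC97L TGF-β1 library, 245 without the MHCC97H TGF-β1 library and 1588 without HCCLM3.

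The 2 treatment pairs gave the same direction for 398 of the 404 called genes. The other 6 had counts in a single control library of MHCC97H or MHCC97L and 0 in both TGF-β1 libraries, and none of them had whole counts, which marks reads divided among several genes. Whole counts in all 4 libraries were found for 234 of the 404, and the other genes are given below as having uncertain counts. Both MHCC97H libraries stood above both MHCC97L libraries, or both below, for 363 of the 404 called genes. Among all genes tested, 16.9% stood apart in this way with MHCC97H above and 16.0% with MHCC97H below. A call requires a difference that is large against its change between treatments. The 398 genes with one direction and the 363 standing apart were thus largely settled by the calls. Without any test, 66 of 11265 genes at 5 CPM or more (0.586%) differed at least 2-fold, and in one direction, in both pairs, 37 higher and 29 lower in MHCC97H, and 53 of the 66 were among the called genes.

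**Figure D1:**
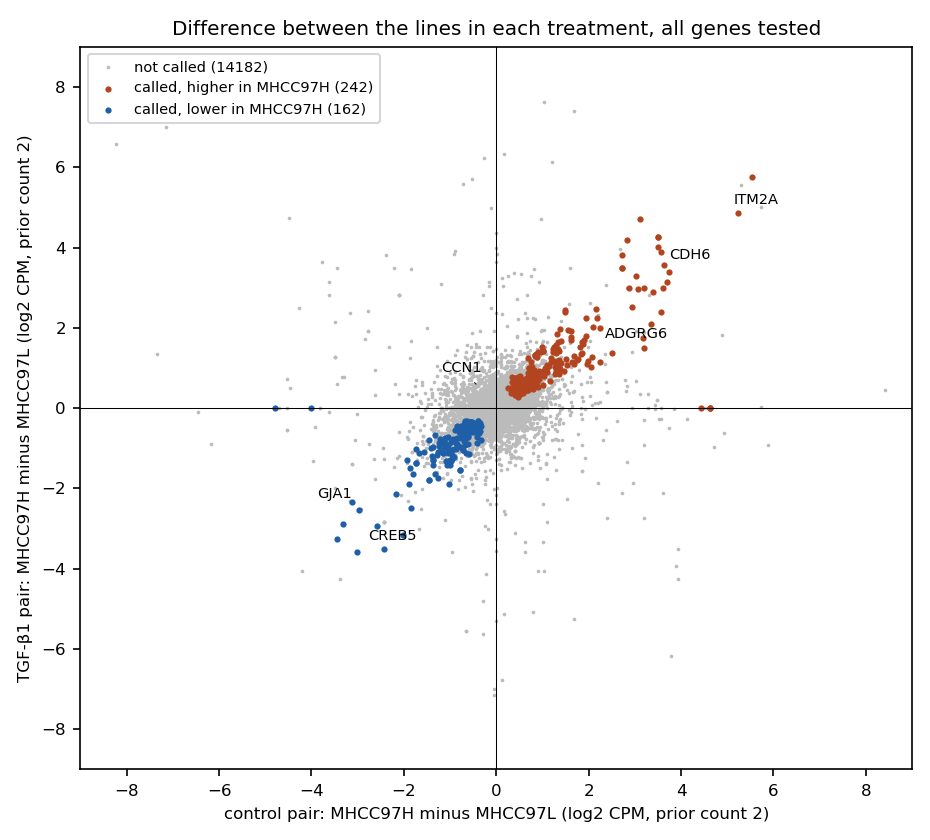
Each point is 1 of 14586 genes tested, placed by its MHCC97H minus MHCC97L difference in log2 CPM (prior count 2) in the control pair (horizontal) and in the TGF-β1 pair (vertical), with 1 library per line in each pair. Genes called higher in MHCC97H (242) lie mostly in the upper right and those called lower (162) in the lower left, and CCN1, which was not called, lies at -0.44 and 0.59.

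ITM2A, which encodes a small transmembrane protein of the BRICHOS family, had the largest difference of the 24 genes named by a rule of size (the 12 largest in each direction among called genes with whole counts and 5 CPM or more in both libraries of the higher line). It was at 0.522 CPM in the MHCC97L control and 0.752 CPM in MHCC97L with TGF-β1, against 23.1 and 24.7 CPM in MHCC97H. These are 12 and 17 counts against 485 and 574, low in both MHCC97L libraries and high in both MHCC97H libraries, with no overlap. The log2 difference was 5.23 (SE 0.23, adjusted p 7.56e-06, edgeR quasi-likelihood with Benjamini-Hochberg adjustment), and it was 5.24 in the control pair (counting interval 4.65 to 6.43) and 4.87 in the TGF-β1 pair (4.34 to 5.83). Its level in HCCLM3 was 0.371 and 0.779 CPM, on the MHCC97L side. The gene lies on chromosome X from 79360384 to 79367667 (hg38, minus strand) and overlaps no annotated gene.

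ADGRG6, an adhesion G protein-coupled receptor known for its role in myelination, was at 2.53 and 1.46 CPM in MHCC97L and 12.4 and 6.14 CPM in MHCC97H, a log2 difference of 2.19 (SE 0.203). Its HCCLM3 values, 2.28 and 1.41 CPM, again stood with MHCC97L. SLC38A5, a transporter of glutamine, serine and other neutral amino acids, was at 4.62 and 7.07 CPM in MHCC97L and 19.9 and 28.7 CPM in MHCC97H (log2 difference 2.06, SE 0.133), and it was higher still in HCCLM3, at 78.8 and 90.3 CPM. All 4 libraries of the 2 sublines stood apart by line for both genes.

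In the opposite direction CREB5, a bZIP transcription factor that binds cyclic AMP response elements, was at 13.5 and 10.4 CPM in MHCC97L and at 2.19 and 1.29 CPM in MHCC97H. The difference was -2.80 on the log2 scale (SE 0.193, adjusted p 0.000171, edgeR quasi-likelihood with Benjamini-Hochberg adjustment), at -2.58 in the control pair and -2.93 in the TGF-β1 pair. GJA1, which encodes the gap junction protein connexin 43, was at 8.58 and 16.8 CPM in MHCC97L against 0.906 and 3.22 CPM in MHCC97H, a difference of -2.72 (SE 0.232). Within each line GJA1 was higher in the TGF-β1 library than in the control, and the highest MHCC97H value still lay under the lowest MHCC97L value. HCCLM3 had 0.212 and 0.438 CPM of GJA1, and 5.99 and 5.06 CPM of CREB5, which lies between the 2 sublines.

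The promoter windows of these 4 genes are shown because they carry the largest differences in each direction, ADGRG6 standing second among the higher genes and GJA1 second among the lower ones. Each is the 250 bases before the start site given by RefSeq (GRCh38.p14), written 5′ to 3′ on the gene's strand, with CG dinucleotides in capitals. The windows are chrX:79367335-79367584 on the minus strand for ITM2A, chr6:142301757-142302006 on the plus strand for ADGRG6, chr7:28412268-28412517 on the plus strand for CREB5 and chr6:121435396-121435645 on the plus strand for GJA1. In GENCODE the CREB5 gene begins upstream, at 28299321, and ITM2A begins at 79367667, so both of their windows lie inside the annotated gene. The windows of ADGRG6 and GJA1 span the GENCODE starts, 142301854 and 121435577. Other start sites are not shown.
ITM2A: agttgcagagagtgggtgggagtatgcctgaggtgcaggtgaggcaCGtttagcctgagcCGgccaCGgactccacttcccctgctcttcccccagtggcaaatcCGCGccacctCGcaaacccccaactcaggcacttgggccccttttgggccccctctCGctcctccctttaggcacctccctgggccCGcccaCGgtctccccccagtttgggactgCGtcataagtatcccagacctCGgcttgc
ADGRG6: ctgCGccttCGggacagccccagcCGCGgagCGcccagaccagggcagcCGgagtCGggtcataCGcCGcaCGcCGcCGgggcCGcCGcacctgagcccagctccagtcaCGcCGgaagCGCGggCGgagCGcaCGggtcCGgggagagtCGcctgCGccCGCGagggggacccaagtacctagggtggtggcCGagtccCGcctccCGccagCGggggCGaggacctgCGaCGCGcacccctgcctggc
CREB5: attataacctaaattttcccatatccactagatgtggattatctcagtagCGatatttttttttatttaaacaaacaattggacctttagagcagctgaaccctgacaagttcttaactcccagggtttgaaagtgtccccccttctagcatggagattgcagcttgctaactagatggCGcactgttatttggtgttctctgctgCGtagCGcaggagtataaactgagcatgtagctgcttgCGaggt
GJA1: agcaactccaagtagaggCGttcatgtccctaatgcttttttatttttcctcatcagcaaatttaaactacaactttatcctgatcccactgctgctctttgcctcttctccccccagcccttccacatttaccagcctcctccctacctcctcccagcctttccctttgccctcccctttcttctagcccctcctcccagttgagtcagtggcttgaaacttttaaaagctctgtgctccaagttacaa
The letters CG, which read the same on both strands, occurred 11 times in the ITM2A window, 34 times in that of ADGRG6, 5 times in that of CREB5 and once in that of GJA1. At least 1 CG was present in 98.9% of the 10886 windows of tested genes, whose median was 20 and quartiles 13 and 28. GJA1 was thus at the CG-poor end, with as few or fewer in 3.0% of windows, and ADGRG6 at the rich end, with as few or fewer in 91.0%. The count describes these windows and no methylation was measured.

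The other genes named by size of difference also kept the lines apart in every library. Among the 12 higher genes were TMEM176A and TMEM176B, neighbouring membrane protein genes that overlap on opposite strands of chromosome 7, at 3.61 to 3.98 and 4.48 to 4.60 CPM in MHCC97L and 10.9 to 15.6 and 14.01 to 15.9 CPM in MHCC97H. Reads from such opposite-strand partners cannot be told apart here, because the labels do not say whether the libraries keep strand, so their values are uncertain even with whole counts. The same holds for GASK1B, SELPLG, TFPI2, PEG10, GPR15, NKX2-2, WT1, IL20RB and KCNG1, which also overlap another annotated gene. Of the other genes described, an overlap with another annotated gene, on the same or the opposite strand, makes uncertain the values of ARPC4, AXL, CBARP, CCL5, CD82, CDH2, CDH6, CEBPB, CIRBP, CLDND1, CPOX, DHCR7, EDEM1, EMC3, EPHB2, ERBB3, HLA-DMA, HNF4A, HOXA11, HPD, HSPG2, IFIT1, IL32, INHBA, ITGA1, KDR, LAMB1, LSS, LYPD1, MARK1, MMP1, NR1I2, NRG1, PCDH7, PROX1, RBP4, S100A4, SGCE, SPANXA1, SPARC, STK11, TMEM144, TSC22D1, TSPAN8 and VIM. ERBB3, MARK1, NR1I2 and NRG1 overlap only genes on their own strand. FGB, the fibrinogen beta chain made by hepatocytes, was at 12.6 and 15.1 CPM in MHCC97L and 45.9 and 39.2 CPM in MHCC97H, a difference of 1.62 (SE 0.133). SPTSSB, a small subunit of serine palmitoyltransferase in sphingolipid synthesis, was at 14.5 and 11.6 CPM in MHCC97L and 48.6 and 26.7 CPM in MHCC97H. The selectin ligand gene SELPLG was higher in MHCC97H by 1.42 (SE 0.209), the Golgi protein gene GASK1B by 1.498 (SE 0.128) and the squamous keratin gene KRT4 by 1.32 (SE 0.223).

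Of the 12 lower genes, TFPI2, a secreted Kunitz inhibitor of proteases that act on the matrix, was at 20.8 and 25.7 CPM in MHCC97L and 5.39 and 10.5 CPM in MHCC97H (log2 difference -1.59, SE 0.156). PEG10, an imprinted gene of retrotransposon origin, was at 20.8 and 16.0 CPM in MHCC97L and 6.195 and 6.14 CPM in MHCC97H, while HCCLM3 had 124 and 106 CPM. NKX2-2, a homeobox transcription factor gene, differed by -1.41 (SE 0.166) and WT1, a zinc finger gene, by -1.40 (SE 0.24), with 0 counts of WT1 in both HCCLM3 libraries. FHL1, a LIM domain gene, differed by -1.31, the receptor gene GPR15 by -1.51, the cytokine receptor subunit gene IL20RB by -1.24, SOST, which encodes the WNT inhibitor sclerostin, by -1.22, the potassium channel subunit gene KCNG1 by -1.21 and the cancer-testis gene CT55 by -1.76.

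Leaving out any 1 of the 4 libraries kept the direction of all 24 genes and the call of 20 or 21 of them. The calls lost were KRT4, WT1, SOST and KCNG1 without the MHCC97L control, KRT4, WT1 and KCNG1 without the MHCC97H control, SELPLG, IL20RB, SOST and KCNG1 without the MHCC97L TGF-β1 library, and SELPLG, KRT4, SOST and KCNG1 without the MHCC97H TGF-β1 library. The 24 genes were chosen for the same direction in both treatments, so their kept direction is no separate check. CDH6, which encodes a cadherin of kidney and neural development, had a larger difference than ADGRG6 but non-whole counts, and was named after its values were seen. Its values, which are uncertain, were 1.31 and 2.79 CPM in MHCC97L, 17.4 and 34.1 CPM in MHCC97H and 46.8 and 79.1 CPM in HCCLM3, a difference of 3.65 (SE 0.142) between the sublines.

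Several well-covered genes outside the named 24 also differed by 2-fold or more in both pairs, and were picked out after their values were seen. TSPAN8, a tetraspanin gene that overlaps LGR5 on the opposite strand, had counts of 706 and 730 in MHCC97L and 1599 and 1711 in MHCC97H, with scaled log2 differences of 1.31 in the control pair and 1.19 in the TGF-β1 pair. ANPEP, which encodes the membrane peptidase CD13, had 720 and 654 counts in MHCC97L against 1568 and 1530 in MHCC97H, with differences of 1.25 and 1.18. PCDH7, a protocadherin gene, had 852 and 522 counts against 1680 and 1127. All 3 were apart by line, and all 3 were lower in HCCLM3 than in MHCC97H. In the other direction SRGN, the proteoglycan serglycin, had 921 and 1041 counts in MHCC97L and 366 and 521 in MHCC97H, and GNG11, a G protein gamma subunit, had 637 and 706 against 262 and 331. IGFBP1, a liver-secreted IGF-binding protein, had 1960 and 1865 counts in MHCC97L and 831 and 839 in MHCC97H, yet was not called (adjusted p 0.425, edgeR quasi-likelihood with Benjamini-Hochberg adjustment). Its 2 HCCLM3 libraries had 672 and 282 counts. The fit draws its spread from all 6 libraries, and why IGFBP1 was not called was not tested.

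**Figure D2:**
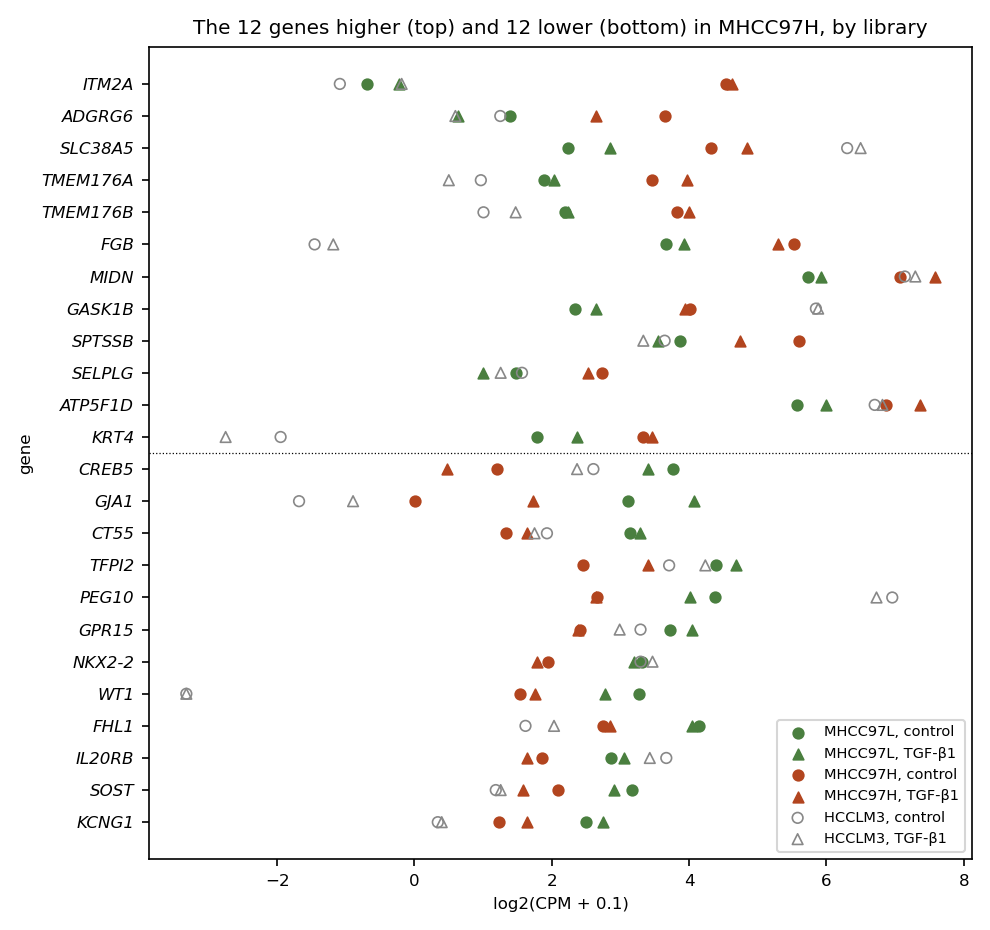
Level of the 12 genes higher and the 12 lower in MHCC97H, as log2(CPM + 0.1), in the 2 libraries of each line: circles are controls, triangles TGF-β1 libraries, filled green MHCC97L, filled red MHCC97H and open grey HCCLM3. For all 24 genes both MHCC97H libraries lie on one side of both MHCC97L libraries, and HCCLM3 lies on either side, for example near MHCC97L for ITM2A and beyond MHCC97H for SLC38A5.

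No gene was present at 5 CPM or more in both libraries of one subline and at 3 counts or fewer in each library of the other. At 1 CPM or more, 5 genes met this in MHCC97H and 2 in MHCC97L. Among the former was HLA-DMA, which encodes a chaperone of antigen loading, with 0 counts in both MHCC97L libraries and 88 and 114 in MHCC97H, at least 69.4-fold higher against 3 counts over the MHCC97L libraries. Its counts were not whole and it overlaps other genes, so the value is uncertain, as are those of LYPD1, at least 17.5-fold higher, and of ZNF93, which had 3 counts in each MHCC97L library and 61 and 53 in MHCC97H. MARK1, a kinase gene that acts on microtubules, had whole counts of 30 and 28 in MHCC97L and 1 and 2 in MHCC97H. RIMBP3B, also uncertain, had 37 and 33 counts in MHCC97L and 0 in both MHCC97H libraries, at least 22.7-fold lower.

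HCCLM3 was then placed beside each called gene. Both HCCLM3 libraries lay on the MHCC97H side of the midpoint between the sublines for 243 of the 404 genes (60.1%), on the MHCC97L side for 131 (32.4%) and on neither for 30 (7.4%). Over all 14586 genes the same rule placed 30.7% on the MHCC97H side, 29.5% on the MHCC97L side and 39.9% on neither. A call favours a steady difference between the sublines, which leaves fewer genes on neither side. The shares of called genes and of all genes are therefore not like for like. The share on the MHCC97H side was 60.7% of the genes higher in MHCC97H and 59.3% of the lower ones. The contrasts with HCCLM3 share the MHCC97 libraries with the main comparison, so the split is a description. Of the 12 named higher genes, 4 lay on the MHCC97H side (SLC38A5, MIDN, GASK1B and ATP5F1D) and 8 on the MHCC97L side, and of the 12 lower genes 6 lay on the MHCC97H side and 5 on the MHCC97L side.

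Gene lists were described by how many of their tested members were called and by their median difference, beside 1.66% higher, 1.11% lower and a median of 0.01 over all genes. Enzymes and regulators of cholesterol and fatty acid synthesis were higher in MHCC97H in 5 of 27 genes and lower in 0, with a median of 0.30 (0.29 in the control pair and 0.24 in the TGF-β1 pair). Both MHCC97H libraries stood above both MHCC97L libraries for 17 of the 27, and for 16.9% of all genes tested. The stearoyl-CoA desaturase gene SCD was at 186 and 191 CPM in MHCC97L and 370 and 338 CPM in MHCC97H, a difference of 0.91 (SE 0.081, adjusted p 0.00046, edgeR quasi-likelihood with Benjamini-Hochberg adjustment). Lanosterol synthase, encoded by LSS, was at 33.7 and 34.3 CPM against 55.8 and 65.2 CPM, with uncertain counts. DHCR7, which encodes the last enzyme of the pathway to cholesterol, was at 99.9 and 96.0 CPM in MHCC97L and 148 and 132 CPM in MHCC97H. Without the MHCC97L control or the MHCC97L TGF-β1 library 2 of the 27 genes were called, SCD and LSS in both cases, without the MHCC97H control 4 and without the MHCC97H TGF-β1 library 3.

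Chemokine and inflammation genes were lower in MHCC97H in 5 of 24 genes and higher in 0, with a median of -0.37 (-0.38 in each pair). CXCL8, which encodes the neutrophil chemokine interleukin-8, was at 9.27 and 11.3 CPM in MHCC97L and 4.24 and 5.76 CPM in MHCC97H, a difference of -1.04 (SE 0.143, adjusted p 0.00523, edgeR quasi-likelihood with Benjamini-Hochberg adjustment). In HCCLM3 CXCL8 was at 21.7 and 22.6 CPM, above both sublines. IL32, a cytokine gene, was at 49.3 and 64.6 CPM in MHCC97L and 28.9 and 44.9 CPM in MHCC97H, and the highest MHCC97H value lay under the lowest MHCC97L value. CX3CL1 and CCL5, chemokines of T cells and monocytes, differed by -1.14 (SE 0.216) and -1.20 (SE 0.244), and the apoptosis inhibitor gene BIRC3 by -0.51 (SE 0.097), all 3 with uncertain counts. For BIRC3 the lines overlapped, the MHCC97L value with TGF-β1 (31.7 CPM) lying under the MHCC97H control (45.1 CPM). Across the list 22 of 24 differences were negative, while the median over all genes tested was 0.01. Both MHCC97H libraries lay below both MHCC97L libraries for 11 genes of the list, and for 16.0% of all genes tested. Left without any 1 of 3 libraries (the MHCC97L control, the MHCC97H control or the MHCC97L TGF-β1 library) only CXCL8 was called in this list, and 3 genes were called without the MHCC97H TGF-β1 library.

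Among growth factor ligands 4 of 26 were lower and 0 higher, with a median of -0.24, 12 positive and 14 negative differences. The balance depended on the genes and libraries in the fit, with 4 higher and 4 lower over genes with whole counts alone, 4 higher and 8 lower without HCCLM3, 2 higher and 4 lower without a filter on low counts, and 1 higher and 5 lower without the MHCC97H TGF-β1 library. INHBB, a subunit of activin and inhibin, was at 148 and 87.0 CPM in MHCC97L and 71.7 and 43.2 CPM in MHCC97H, a difference of -1.03 (SE 0.084). EREG, the EGF receptor ligand epiregulin, was at 106 and 79.8 CPM against 50.9 and 48.0 CPM, with uncertain counts. NRG1, the ERBB3 and ERBB4 ligand neuregulin, was at 61.3 and 65.5 CPM in MHCC97L and 32.1 and 37.8 CPM in MHCC97H, a difference of -0.86 (SE 0.088). INHBB, EREG and NRG1 kept their calls without any 1 of the 4 libraries. INHBA, the other activin subunit gene, differed by -1.14 (SE 0.244) at 1.76 to 4.96 CPM, and was called without the MHCC97H TGF-β1 library but not without any other. On the receptor side, 3 of 20 receptor tyrosine kinases were higher (ERBB3 by 0.57, EPHB2 by 0.91 and KDR by 0.93) with uncertain counts for the first pair, and the TAM family receptor gene AXL differed by -0.50 (SE 0.096), also with uncertain counts, at 105 and 95.6 CPM in MHCC97L and 65.7 and 76.1 CPM in MHCC97H. These 4 calls depended on single libraries: none was kept without the MHCC97L control, EPHB2 alone was kept without the MHCC97H control or the MHCC97L TGF-β1 library, and AXL alone without the MHCC97H TGF-β1 library. For EPHB2 the lines overlapped, the MHCC97L value with TGF-β1 (16.2 CPM) lying above the MHCC97H control (13.25 CPM).

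Extracellular matrix genes were higher in 5 of 27 and lower in 0, with a median of 0.13. LAMA3 and LAMB1, laminin chains of basement membrane, were higher by 0.48 (SE 0.078) and 0.46 (SE 0.076), with LAMB1 at 191 and 147 CPM in MHCC97L and 265 and 201 CPM in MHCC97H. For LAMA3 the lines overlapped, the MHCC97H value with TGF-β1 (122 CPM) lying under the MHCC97L control (128 CPM). COL17A1, a hemidesmosomal collagen, was at 14.8 and 16.4 CPM against 26.02 and 23.4 CPM. SPARC, a secreted matrix glycoprotein, was at 0.348 and 0.619 CPM in MHCC97L and 1.05 and 2.71 CPM in MHCC97H, a low level in both. The perlecan gene HSPG2 differed by 0.39 (SE 0.086), with uncertain counts. Without a single library 1 of the 27 genes was called (SPARC, COL17A1 or LAMB1, by the library left out), except without the MHCC97H control, where 2 were (LAMA3 and SPARC). MMP1, interstitial collagenase, was the 1 called gene among 25 proteases and inhibitors, at 6.44 and 12.1 CPM in MHCC97L and 15.6 and 21.7 CPM in MHCC97H (difference 1.04, SE 0.142), a call lost without the MHCC97L control. ITGA1, a collagen-binding integrin subunit, was the 1 called of 18 integrins, higher by 0.94 (SE 0.204) with uncertain counts, and lost its call without any 1 library.

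Genes linked to metastasis in liver cancer were counted beside the 2.77% called over all genes. A list of 29 tested genes is too small to show whether they were called more or less often than others. Of the 29, 0 were higher in MHCC97H and 2 lower, with a median of -0.01. The 2 were AXL and ACKR3, a scavenging receptor of the chemokine CXCL12, which was at 135 and 206 CPM in MHCC97L and 79.3 and 129 CPM in MHCC97H, a difference of -0.72 (SE 0.083). ACKR3 lost its call without the MHCC97L control, and AXL kept its call only without the MHCC97H TGF-β1 library. MET, the receptor of hepatocyte growth factor, differed by -0.02 (SE 0.091), S100A4 by 0.03 (SE 0.081), and osteopontin, encoded by SPP1, by 0.09 (SE 0.081), and none of them was called. Of 21 metastasis suppressor genes 0 were called in either direction by edgeR, DESeq2 or limma-voom, and the median was -0.11. An unadjusted edgeR p under 0.05 was found for 3 of the 21, and for 2246 of the 14586 genes tested. The largest difference in that list among genes above 1 CPM in both sublines was that of CD82, a tetraspanin gene, at -0.61 (SE 0.146, adjusted p 0.0614, edgeR quasi-likelihood with Benjamini-Hochberg adjustment), at 14.02 and 16.8 CPM in MHCC97L and 8.15 and 12.3 CPM in MHCC97H.

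Mesenchymal genes were called in 4 of 20, with SPARC higher and SNAI2, LGALS1 and AXL lower, and a median of -0.17. SNAI2, an EMT transcription factor also called Slug, was at 16.8 and 39.0 CPM in MHCC97L and 9.34 and 27.0 CPM in MHCC97H, a difference of -0.67 (SE 0.114), though the lines overlapped, the MHCC97H value with TGF-β1 lying above the MHCC97L control. Without the MHCC97L or the MHCC97H control SPARC alone was called in this list, without the MHCC97L TGF-β1 library TAGLN alone, and without the MHCC97H TGF-β1 library AXL and SNAI2, so LGALS1 kept its call in none of the 4. Vimentin, encoded by VIM, differed by -0.11 (SE 0.119) and N-cadherin, CDH2, by -0.04 (SE 0.093). The tight junction gene CLDN1 was the 1 called of 20 epithelial junction genes, with a difference of -0.59 (SE 0.117), at 27.1 and 24.98 CPM in MHCC97L and 17.3 and 17.2 CPM in MHCC97H, and it lost its call without any 1 of the 4 libraries. Targets of YAP and TAZ, the Hippo pathway's co-activators, were lower in 5 of 23 (F3, AXL, FJX1, IGFBP3 and FOXF2) and higher in 1 (NT5E), with a median of -0.14. IGFBP3, an IGF-binding protein, was at 284 and 231 CPM in MHCC97L and 228 and 133 CPM in MHCC97H. The forkhead gene FOXF2 was at 3.22 and 3.10 CPM against 0.810 and 1.03 CPM. Without single libraries the list held 0 calls (MHCC97L control), 1 (MHCC97H control) or 2 (either TGF-β1 library).

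CCN1, the YAP target and secreted matricellular protein that the series title calls by its older symbol CYR61, was not called. It was at 7.84 CPM in the MHCC97L control and 5.77 CPM in the MHCC97H control, and at 18.3 and 27.7 CPM in their TGF-β1 libraries. The difference was 0.15 (SE 0.285, adjusted p 0.873, edgeR quasi-likelihood with Benjamini-Hochberg adjustment). MHCC97H was thus lower in the control pair, by -0.44 (counting interval -0.79 to -0.10), and higher in the TGF-β1 pair, by 0.59 (0.42 to 0.78), with 1 library on each side of each pair.

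**Figure D3:**
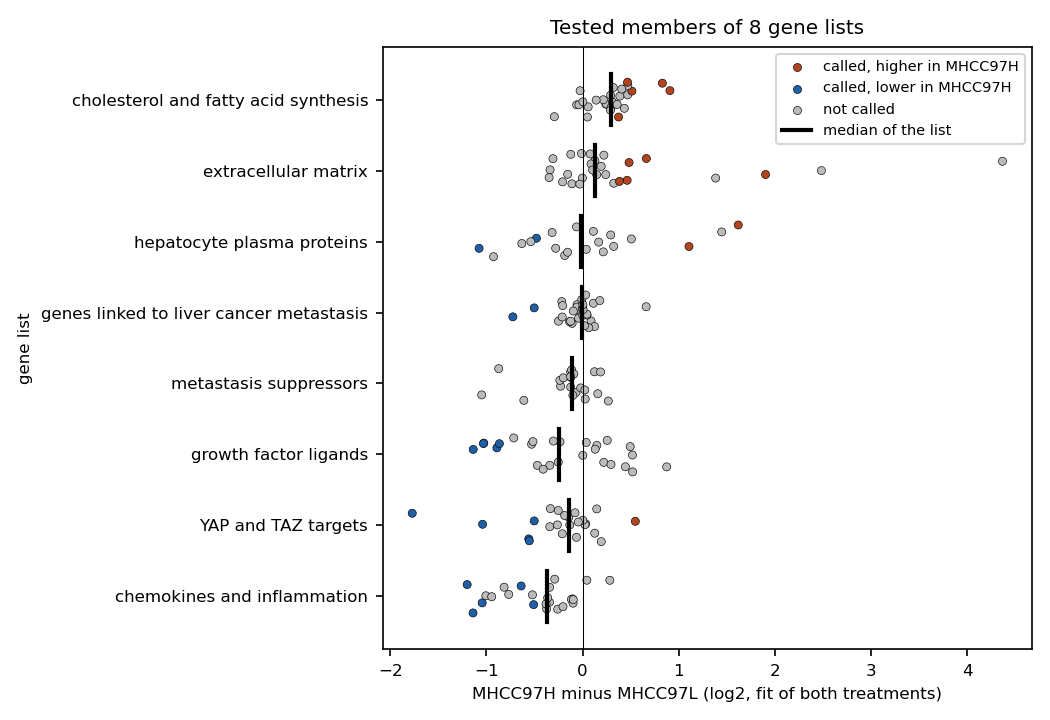
Log2 difference, MHCC97H minus MHCC97L, of each tested member of 8 gene lists, with called members in red (higher) or blue (lower), members that were not called in grey, and the list's median as a black bar. The medians run from 0.30 for cholesterol and fatty acid synthesis to -0.37 for chemokines and inflammation, and that of the genes linked to metastasis is -0.01.

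Secreted proteins of the hepatocyte moved in both directions. ALB and FGB were higher in MHCC97H, and SERPINA1, which encodes alpha-1 antitrypsin, and RBP4, the retinol carrier, were lower, out of 20 tested. SERPINA1 was at 54.2 and 114 CPM in MHCC97L and 28.5 and 49.1 CPM in MHCC97H, with uncertain counts. ALB differed by 1.11 (SE 0.152, adjusted p 0.00523, edgeR quasi-likelihood with Benjamini-Hochberg adjustment), and lost its call without either control library. RBP4 (-0.48, SE 0.104) lost its call without any 1 of the 4 libraries, and with DESeq2, library totals as scaling or a fit that was not robust, while FGB and SERPINA1 kept theirs without any 1 library. FGG, the fibrinogen gamma chain, differed by 1.45 (SE 0.365, adjusted p 0.0735, edgeR quasi-likelihood with Benjamini-Hochberg adjustment), near 1 CPM in MHCC97L. All 5 of these genes (ALB, FGB, SERPINA1, RBP4 and FGG) were lower in HCCLM3 than in either subline, with ALB at 1.43 and 1.27 CPM and FGB at 0.265 and 0.341 CPM. HPD, an enzyme of tyrosine breakdown, was lower in MHCC97H at 23.9 and 22.6 CPM against 47.6 and 55.5 CPM, and CYP27A1, a bile acid synthesis enzyme, was higher at 88.4 and 113 CPM against 62.8 and 75.5 CPM. HPD kept its call without any 1 library, and CYP27A1 only without the MHCC97H control. Among 18 liver transcription factors PROX1 (1.89) and the nuclear receptor gene NR1I2 (0.96) were higher and CEBPB (-0.64) was lower, and HNF4A (0.03, SE 0.086) was not called. Without single libraries the calls in this list were PROX1 alone (MHCC97L control), CEBPB alone (MHCC97H control), 0 (MHCC97L TGF-β1) or both (MHCC97H TGF-β1), and NR1I2 was lost each time.

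Interferon-stimulated genes were called in 2 of 27, both lower: OASL at 25.95 and 36.7 CPM in MHCC97L and 12.3 and 18.6 CPM in MHCC97H, and IFIT1 at 5.01 and 4.86 CPM against 2.43 and 1.25 CPM. OASL was called without any 1 of the 4 libraries, and IFIT1 only without the MHCC97H control. ID3, an inhibitor of bHLH factors induced by BMP signals, was the 1 called gene among 12 ID and BMP genes, higher by 0.73 (SE 0.094) with uncertain counts, and lost its call without the MHCC97L control. Cancer-testis genes were called in 4 of 12, with SSX1, MAGEA6 and MAGEA2 higher and SPANXA1 lower. All 4 belong to families of near-identical copies and had non-whole counts, so their values are uncertain. SSX1 was at 1.13 and 1.02 CPM in MHCC97L, 4.34 and 3.35 CPM in MHCC97H and 131 and 146 CPM in HCCLM3. SSX1 and SPANXA1 kept their calls without any 1 library, MAGEA2 lost its call without either control, and MAGEA6 kept its call only without the MHCC97L TGF-β1 library. HOXA11 was the 1 called of 20 HOX genes, which set position along the body axis, at 1.44 and 1.95 CPM in MHCC97L and 3.96 and 4.38 CPM in MHCC97H, a call lost without the MHCC97L control or the MHCC97H TGF-β1 library. Of 34 lists, 6 had 0 called members by edgeR: metastasis suppressors, cell cycle, hypoxia and glycolysis, Notch, ribosomal proteins and mitochondrially encoded genes. At an unadjusted edgeR p under 0.05 these held 3 of 21, 3 of 30, 6 of 26, 3 of 12, 7 of 36 and 0 of 13 genes. Over all genes tested 2246 of 14586 passed the same threshold, and no list was tested against that share. DESeq2 called 1 gene each among hypoxia and ribosomal genes and limma-voom 1 among hypoxia genes. The mitochondrially encoded genes had a median of -0.24, from -0.01 in the control pair and -0.52 in the TGF-β1 pair.

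Called genes also stood side by side on the chromosomes. The longest run held 6 genes in a row on the short arm of chromosome 19, from 1107636 to 1274880 (hg38), all higher in MHCC97H: SBNO2, STK11, CBARP, ATP5F1D, MIDN and CIRBP. MIDN, which encodes the proteasome-linked protein midnolin, was at 52.98 and 60.5 CPM in MHCC97L and 134 and 191 CPM in MHCC97H, a difference of 1.503 (SE 0.102, adjusted p 0.000171, edgeR quasi-likelihood with Benjamini-Hochberg adjustment). ATP5F1D, a subunit of the mitochondrial ATP synthase, was at 47.5 and 63.7 CPM against 117 and 164 CPM, and CIRBP, a cold-inducible RNA-binding protein gene, at 45.5 and 43.0 CPM against 80.5 and 82.4 CPM. These 3 genes had whole counts. STK11, which encodes the tumour suppressor kinase LKB1, was at 25.3 and 27.2 CPM in MHCC97L and 66.7 and 87.1 CPM in MHCC97H, with uncertain counts, as were those of SBNO2 and CBARP. Without single libraries the run lost the calls of CBARP (MHCC97L control) and SBNO2 (MHCC97L TGF-β1), and the other 4 genes kept theirs.

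The run ended sharply on both sides. The neighbour before it, GPX4, differed by 0.07 (SE 0.104) and the neighbour after it, FAM174C, by 0.08 (SE 0.109), and neither was called. Differences over the 6 genes ran from 0.88 to 1.73 between the sublines and from 0.65 to 1.76 between HCCLM3 and MHCC97L, so HCCLM3 also lay above MHCC97L for all 6. ABCA7, a lipid transporter gene further out, was also called, higher by 0.62 (SE 0.123), with 3 tested genes that were not called between it and the run. DNA copy number was not measured in these libraries.

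**Figure D4:**
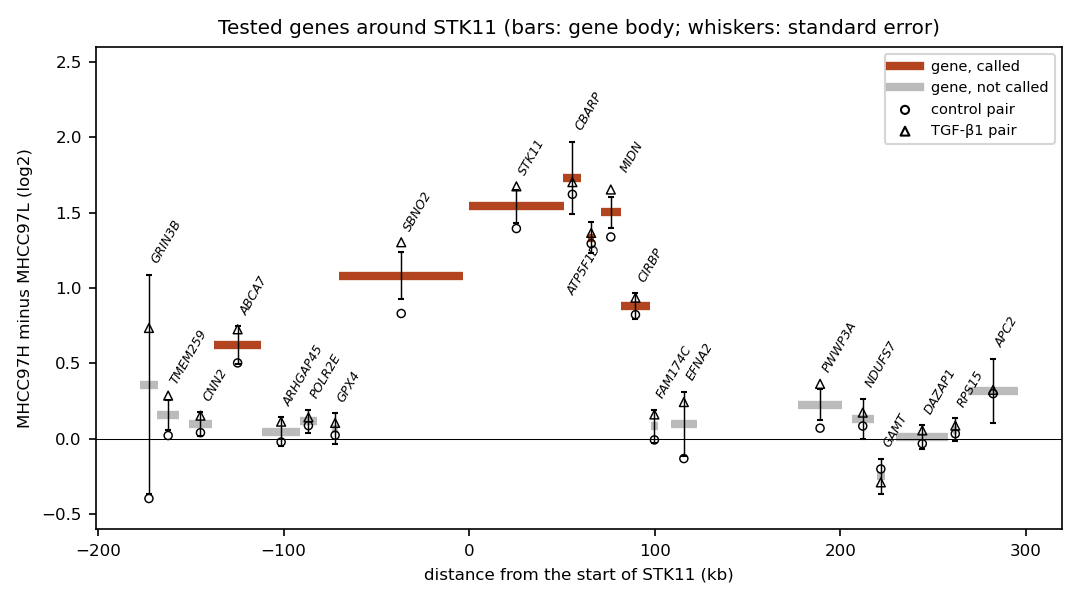
Difference between the sublines (log2, MHCC97H minus MHCC97L) of the tested genes around STK11, against distance from its start in kb. Bars span the gene bodies, red where called and grey where not, whiskers are standard errors of the fit over both pairs, and open circles and triangles give the control and TGF-β1 pairs. The 6 neighbouring called genes lie between 0.88 and 1.73 while GPX4 and FAM174C on either side lie at 0.07 and 0.08.

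There were 2 other runs of at least 3 genes. CLDND1, GPR15 and CPOX on chromosome 3, from 98497912 to 98593723, were all lower in MHCC97H, by -1.51 to -0.56 on the log2 scale. The other was a SPANX trio on chromosome X whose near-identical copies share reads, so that the genes are not separate measurements. A further 13 pairs of neighbours were called in the same direction, and whether scattered calls would give as many was not tested. Some pairs overlap or are near-identical copies, such as TMEM176A with TMEM176B and MAGEA2 with MAGEA6, and may not be separate measurements. One of the 13 was SGCE and PEG10, imprinted genes that start next to each other on chromosome 7 and overlap there. SGCE was at 6.14 and 5.04 CPM in MHCC97L, 3.38 and 2.62 CPM in MHCC97H and 33.8 and 35.98 CPM in HCCLM3, the same order as PEG10, though SGCE kept its call only without the MHCC97H control. Another was TFPI2 and GNG11, also on chromosome 7.

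Medians over longer stretches were mostly near that of all genes. Of 239 windows of 10 Mb with at least 20 tested genes, 209 had a median within 0.1 of 0, and 5 reached 0.2 in size. The largest was the first 10 Mb of chromosome 3, with a median of -0.31 over 30 genes (-0.33 in each pair), 6 of them called lower and 0 higher. EDEM1, which acts in the disposal of misfolded glycoproteins, was at 274 and 263 CPM in MHCC97L and 210 and 203 CPM in MHCC97H there, and 79.0 and 73.8 CPM in HCCLM3. JAGN1, EMC3 and ARPC4 in the same window differed by -0.38, -0.47 and -0.37 on the log2 scale, the last 2 with uncertain counts. Each of these 4 calls was lost without any 1 of the 4 libraries, except that EMC3 kept its call without the MHCC97H control. Windows of 5 or 20 Mb, a stricter level filter or a single pair gave -0.345 to -0.23 for this region. The same window had a median of -0.82 between HCCLM3 and MHCC97L. The first 20 Mb of chromosome 2 gave -0.21 in each of its 2 windows of 10 Mb, with 1 gene called lower in all, where the polyamine enzyme gene ODC1 was at 123 and 122 CPM in MHCC97L and 85.9 and 92.2 CPM in MHCC97H, a call kept only without the MHCC97H TGF-β1 library. Higher medians were 0.26 on chromosome 4 from 150 to 160 Mb, a window that holds FGB, GASK1B, TRIM2 and TMEM144, and 0.20 on chromosome 13 from 40 to 50 Mb, which holds TSC22D1 and ITM2B. The same alternatives gave -0.24 to -0.15 for the 2 windows of chromosome 2, 0.13 to 0.28 for that of chromosome 4 and 0.136 to 0.235 for that of chromosome 13. Over whole chromosomes medians ran from -0.03 to 0.15, the highest on chromosome 13.

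**Figure D5:**
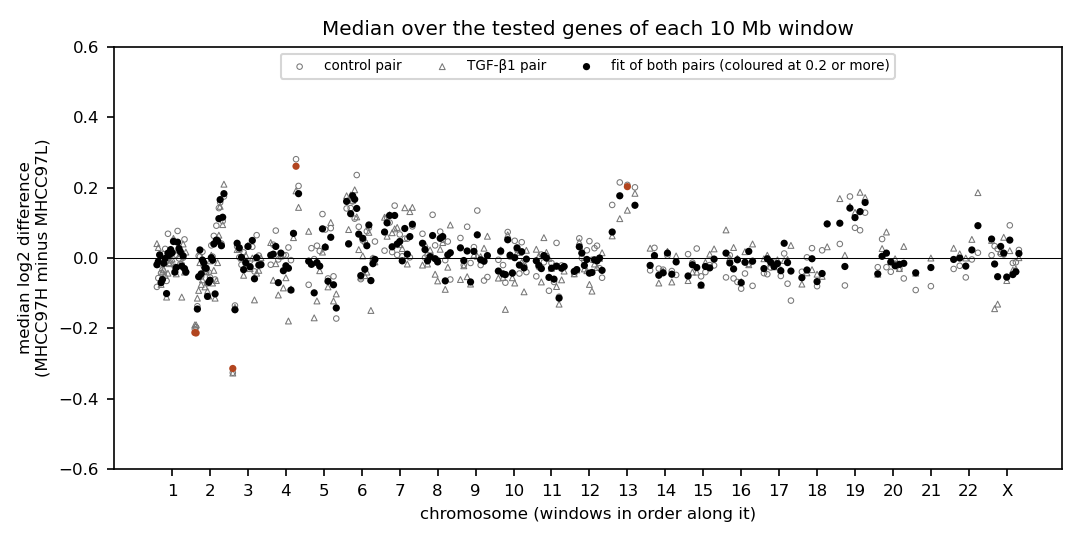
Median log2 difference (MHCC97H minus MHCC97L) over the tested genes of each 10 Mb window with at least 20 tested genes, in order along each chromosome. Filled points are the fit of both pairs, coloured where the median is 0.2 or more in size, and open circles and triangles are the control and TGF-β1 pairs. The first window of chromosome 3 lies lowest at -0.31 and a window of chromosome 4 highest at 0.26.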

How the data were processed

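RNA was sequenced from 6 libraries of 3 liver cancer lines, 1 per line and treatment. The authors deposited 1 table of expected counts per library, with values that need not be whole where reads are shared between genes. Per the submitters' processing notes the build was hg38 and the tools included Cuffdiff 1.3.0, Cufflinks 2.2.1 and TopHat2 2.1.1; the counting tool and strand setting are not given in the sources used here. Expected counts were rounded, which moved library totals by at most 101.4, and 3 counts were worth 0.129 to 0.162 CPM. Gene names came from a reference list of symbols matched by Ensembl ID, and from GENCODE where that list had none.

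Genes passing edgeR's expression filter (14586 of 22091) were fitted with edgeR 4.0.16 (R 4.3.3, TMM scaling, robust quasi-likelihood, additive terms for line and treatment, all 6 libraries). Treatment is the block that pairs the sublines, since each pair shares its treatment; the block stands for no shared culture. Calls are Benjamini-Hochberg adjusted p under 0.05. Counting intervals of a pair cover counting error only. The 24 named genes are the 12 largest differences in each direction among called genes with a unique symbol, whole counts, the same direction in both treatments and 5 CPM or more in the higher line; up to 4 called members per list or window, the genes found in one line and CCN1 were also named. Genes without whole counts, or overlapping another annotated gene, have uncertain values; those described are listed as such. Members and gene lists were chosen with earlier results of these data known. Alternatives used DESeq2 1.42.0, limma 3.58.1 (voom), other scalings, filters, thinned libraries and each library left out. Promoter windows of RefSeq matched 74.6% of tested and 69.8% of called genes, under the 80% needed, so a comparison of called with other promoters is void. On simulated data the fit recovered 98 of 102 genes changed 2-fold and 97 of 98 changed 4-fold. The changed genes all had a mean of 5 CPM or more, so recovery at lower levels was not measured. No effect of TGF-β1 and no difference of HCCLM3 were simulated, unlike in the real libraries. Of the fit's 239 calls on simulated data 44 were unchanged genes, more than the threshold allows. Calls are therefore given beside the values of every library. Python 3.11.15, pandas 2.3.3, numpy 2.4.6, scipy 1.17.1 and matplotlib 3.10.9 were used. Some members of the gene lists are counted but not reported here by name.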

Additional observations from a re-analysis of the deposited data

Results flagged for a closer look

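In 3 results the control pair and the TGF-β1 pair went in opposite directions, with 1 library per line in each pair; the difference between the pairs was not tested. The median of the 20 hepatocyte plasma protein genes was 0.135 in the control pair and -0.18 in the TGF-β1 pair (log2, MHCC97H minus MHCC97L). The median of the 20 cell cycle inhibitor and p53 target genes was -0.107 in the control pair and 0.124 in the TGF-β1 pair. CCN1 was at -0.436 in the control pair and 0.594 in the TGF-β1 pair.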

How the results depend on the processing

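Of the alternatives, 9 kept the count of called genes within 1.5 times of 404 (325 with DESeq2 to 510 without a low-count filter). It was 175 without robust fitting, 1588 without HCCLM3 (402 of the 404 among them) and 130 to 245 without 1 MHCC97 library (lowest without the MHCC97L control, highest without the MHCC97H TGF-β1 library). Without the treatment term, and so without the replicate block that pairs the sublines by treatment, 4 genes were called. The cause was not tested. The share of called genes higher in MHCC97H ran from 54.5% to 66.4% over the fits with the treatment term. Genes past a fold in both pairs numbered 251 at 1.5-fold, 9 at 4-fold and 169 at 1 CPM, against 66. Genes found in one line only numbered 7 at 1 CPM, against 0. CCN1 changed sign without a TGF-β1 library: -0.407 without that of MHCC97L and -0.184 without that of MHCC97H, in a range up to 0.571 without the MHCC97L control. All 24 named genes, chosen for the same direction in both treatments, kept their direction in every setting that tested them. DESeq2 and the fit that was not robust called 21 of them, without KRT4, WT1 and KCNG1, and the fit without the treatment term called ITM2A alone. The planned promoter comparison of genes found in one line was not run, because no gene met the 5 CPM rule. With 1 library per line and treatment, no setting measures the spread between cultures. Depth limits genes below about 1 CPM, where 3 counts come to 0.129 to 0.162 CPM. Of the alternative medians of chromosome windows, 21 moved by more than 1 SD of the treatment pairs and 9 did not, and all kept their sign.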
